A study of Mus musculus with 18 samples.

Results

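The SKG effect, that is the change between SKG and wild-type (WT) mice in log2 RNA counts, was compared between NKT17 and NKT2 cells of the thymus. It was taken in each subset as SKG minus WT, and the difference of the 2 effects, NKT17 minus NKT2, was tested for every gene. The comparison used 12 of the 18 libraries of the series, 3 each from WT NKT2, SKG NKT2, WT NKT17 and SKG NKT17 cells, while the 6 NKT1 libraries entered the scaling and the estimate of spread, and their own SKG effect is given at the end. A positive difference means that SKG was higher relative to WT in NKT17 than it was in NKT2, and a negative difference means the converse.

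Both genotypes were on the BALB/c background, and WT and SKG mice were the F3 generation bred from F2 offspring of a cross of SKG with BALB/cJ mice. SKG mice carry a spontaneous point mutation of Zap70 that alters its second SH2 domain, a hypomorphic allele present in all cells of the animal, so that an effect of earlier development and an effect in the sorted cells themselves cannot be told apart. Cells that bound CD1d tetramer loaded with αGC were sorted as NKT2 when they were negative for CD49 and Sdc-1 and high for ICOS, CD4 and TCRβ, and as NKT17 when they were negative for CD49, high for ICOS and Sdc-1+. The labels list no treatment. Age, sex and the number of mice behind a library were not given for these samples, and the p-values therefore measure the spread between libraries, which may be technical. The libraries held 4391029 to 7055288 counts, with 12099 to 13071 genes having a count.

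Invariant natural killer T (iNKT) cells carry a nearly fixed T cell receptor (TCR) α chain that recognizes lipids on CD1d, and they acquire effector programs in the thymus. NKT2 cells depend on GATA3 and make IL-4, whereas NKT17 cells can make IL-17. ZAP70 is recruited to the phosphorylated TCR complex and passes the signal to adaptor proteins, and the SKG allele weakens this step.

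The targeted gene was measured in every library. Zap70 levels were 483, 574 and 502.8 CPM (read counts scaled to the size of each library) in WT NKT2 and 394, 360.2 and 436 in SKG NKT2, and 801, 852 and 716 in WT NKT17 against 565, 453 and 564 in SKG NKT17. SKG libraries were lower than all WT libraries in both subsets (edgeR adjusted p = 0.0378 in NKT2 and 0.00174 in NKT17). Neither drop reached 1.5-fold, although that in NKT17 was close to it at 1.498-fold. The effects of -0.39 ± 0.12 in NKT2 and -0.58 ± 0.12 in NKT17 (log2 ± SE) differed by -0.19 ± 0.16 (edgeR adjusted p = 0.773). A count per gene does not show the point mutation. Markers of NKT17 separated the subsets. Il23r ranged from 451 to 457 CPM in WT NKT17 and was at most 0.979 CPM in any NKT2 library. The 6 NKT17 markers together summed to between 2382 and 2483 CPM in the 6 NKT17 libraries, WT and SKG, and to between 1.75 and 14.3 CPM in the 6 NKT2 libraries. The sum held opposite changes, since 2 of the 6 were called lower and 1 higher in SKG NKT17. Il23r was 236 to 251 CPM there, Il1r1 216 to 246 against 425 to 494 in WT, and Ccr6 565 to 618 against 3.65 to 18.4. Cd4, which the NKT2 gate selects for, was 199 to 396 CPM in NKT2 and 6.44 to 23.0 in NKT17. Of the genes of other cells, Pax5 and Rag1 had no count in any of the 12 libraries. The 6 B cell markers nevertheless summed to between 24.8 and 40.7 CPM in SKG NKT17, between 7.82 and 11.1 in WT NKT17 and at most 1.02 in NKT2. Nearly all of that sum was Cd79b, a signalling chain of the B cell receptor, which rose in NKT17 (24.6 to 40.0 CPM in SKG against 7.55 to 10.2 in WT). The 7 markers of double-positive thymocytes summed to 5.27 to 12.5 CPM in WT NKT17, 14.3 to 47.5 in SKG NKT17 and 1.64 to 5.62 in NKT2. Most of the sum in SKG NKT17 was Cd8b1 (12.4 to 36.8 CPM, against 1.76 to 11.8 in WT) and Cd8a (0.523 to 9.77 against 0 to 2.34). Rag1, Rag2, Dntt and Arpp21 had no count in any NKT17 library, and the ranges of Ptcra overlapped between genotypes there. The higher sum therefore did not hold for each marker. Red cell, myeloid and epithelial lists summed to at most 1.45, 14.2 and 18.0 CPM in any library. Their part in the results was not tested.

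The SKG effect differed between NKT17 and NKT2 for 244 of 11118 tested genes (2.19%), at an adjusted p under 0.1 and a difference of at least 1.5-fold. It was more positive in NKT17 for 127 genes (1.14%) and more positive in NKT2 for 117 genes (1.05%). Within subsets, 931 genes (8.37%) differed between SKG and WT in NKT17 and 884 (7.95%) in NKT2, so that most genes called in a subset were not called for the difference. Of the 244 genes, 82 were called in NKT17 alone, 93 in NKT2 alone, 45 in both and 24 in neither. The fitted effects had opposite signs for 117 of the 244, but only 9 were called in opposite directions. The number of calls depended on single libraries. It was 157 without SKG NKT17 replicate 1 (82 more positive in NKT17 and 75 in NKT2), and the genes more positive in NKT17 numbered 75 without SKG NKT2 replicate 1, 78 without SKG NKT2 replicate 3, 78 without WT NKT2 replicate 3 and 80 without SKG NKT17 replicate 3. Nearest to the threshold, Vim, Pde7a and Gm15708 passed at an adjusted p of 0.0996, and Smc4, Zfp472 and Gbp10 did not at 0.1004, 0.102 and 0.104.

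**Figure D1:**
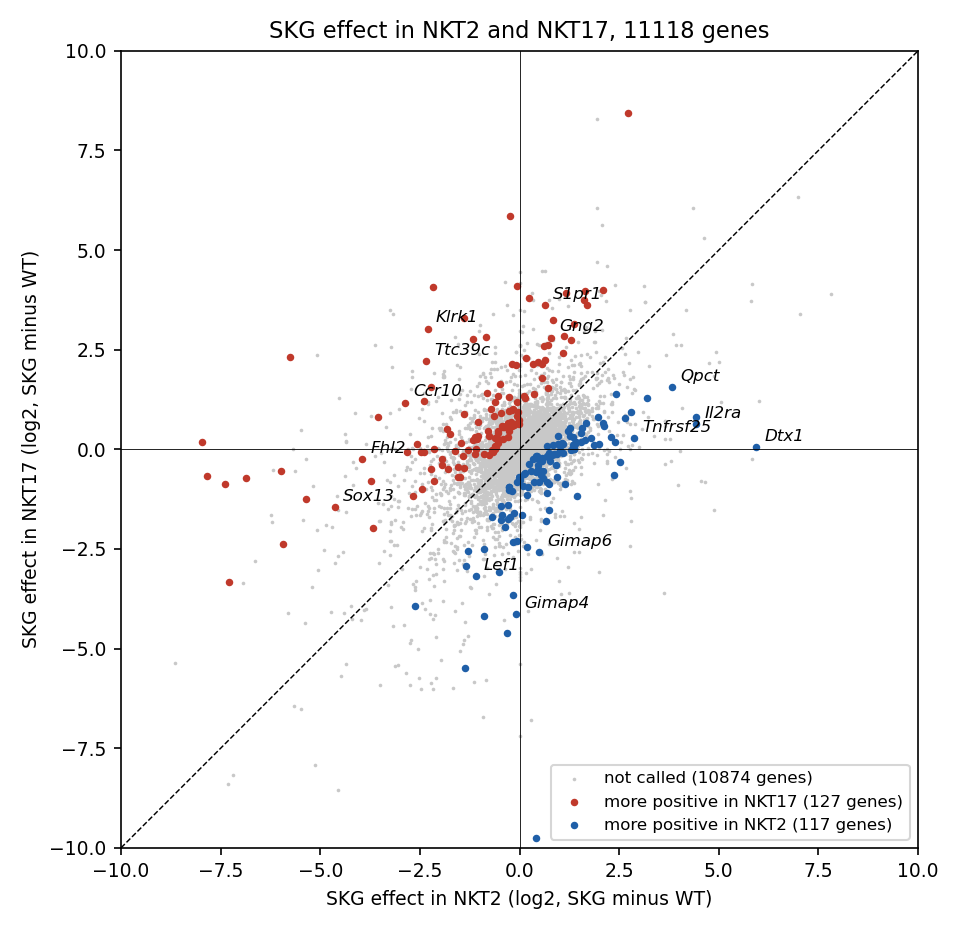
SKG effect in NKT2 (x axis) against that in NKT17 (y axis), both in log2, for the 11118 tested genes, with 1 point per gene and the dashed line where the effects are equal. Red points are the 127 genes more positive in NKT17, blue points the 117 more positive in NKT2, and Dtx1 lies far along the x axis with a value near 0 on the y axis.

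Across all tested genes the effects correlated with Pearson's r = 0.465 and Spearman's rho = 0.422, given as a description, since genes are not independent replicates. The 127 genes more positive in NKT17 had a median difference of 1.56 (log2). Among them, 62 fell in SKG NKT2, 59 rose in SKG NKT17 and 12 rose in NKT2, some genes being counted in both subsets. Of the 117 genes more positive in NKT2, with a median difference of -1.23, 58 rose in SKG NKT2 and 50 fell in SKG NKT17.

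The call with the lowest adjusted p was a gene with opposite changes, Ttc39c, which encodes a tetratricopeptide repeat protein (chr18:12758435-12895559, plus strand, on NCBIM37 as all gene positions here). Its levels were 93.0, 83.2 and 78.1 CPM in WT NKT2, 14.5, 21.9 and 13.8 in SKG NKT2, 8.20, 8.35 and 5.76 in WT NKT17 and 36.7, 31.6 and 34.7 in SKG NKT17. The genotypes did not overlap in either subset: the gene fell in SKG NKT2 (-2.34 ± 0.19) and rose in SKG NKT17 (2.22 ± 0.20), and in SKG the order of the subsets was the reverse of that in WT. The difference was 4.55 ± 0.27 (adjusted p = 6.74e-10). Ccr10, a receptor for the chemokines CCL27 and CCL28 (chr11:101034311-101036757, minus strand), moved likewise. Its levels were 98.3, 77.8 and 34.9 CPM in WT NKT2 against 8.15, 11.4 and 8.99 in SKG NKT2, and 20.9, 16.0 and 21.3 in WT NKT17 against 26.8, 49.9 and 54.6 in SKG NKT17. No SKG library overlapped a WT library of its subset, and the difference was 4.05 ± 0.50 (adjusted p = 1.24e-04).

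Klrk1, which encodes the activating receptor NKG2D (chr6:129560341-129573882, minus strand), also changed in opposite directions. It was measured at 13.3, 7.17 and 5.66 CPM in WT NKT2, 1.98, 2.15 and 1.12 in SKG NKT2, 2.93, 3.13 and 0.823 in WT NKT17 and 27.6, 12.2 and 13.3 in SKG NKT17. Counts were low, yet the genotypes were apart in both subsets, and the difference of 5.34 ± 0.72 passed the test (adjusted p = 0.00143). Klrd1, which encodes CD94, the partner chain of NKG2 receptors, was 19.2, 5.24 and 5.82 CPM in WT NKT2, 2.64, 3.92 and 4.34 in SKG NKT2, 0, 0.174 and 0.412 in WT NKT17 and 3.26, 2.27 and 1.31 in SKG NKT17. It fell in NKT2 and rose at least 4.50-fold in NKT17, where WT was at or under 3 counts in every library, and the difference was 4.71 ± 1.10 (adjusted p = 0.0544). Its call was lost without SKG NKT2 replicate 1, SKG NKT17 replicate 1 or any of the 3 WT NKT17 libraries (adjusted p 0.102 to 0.185), and with limma and voom (0.157). Of 21 tested NK receptor genes, these were the only called ones (9.52%, with 3 called by DESeq2 and 1 by limma with voom). The median difference of the list was 1.403, or 0.18 with genes at the floor of 3 counts set to their bound, against -0.01 for all tested genes. Klrd1 was also the 1 call among 6 NKT1 markers, whose sum in NKT2 was 211 to 304 CPM in SKG against 299 to 424 in WT, and in NKT17 161 to 221 against 283 to 324. The lower sum in NKT17 did not hold for each marker. There, 1 marker was called higher in SKG (Klrd1) and 1 lower (Il2rb, -0.71), and the median effect of the 6 was 0.64 (log2). Sh3bgrl2, an SH3-binding glutamate-rich protein, fell from 17.2, 9.44 and 7.60 to 1.76, 6.85 and 4.01 CPM in NKT2 and rose from 24.0, 35.3 and 28.8 to 68.7, 46.8 and 48.4 in NKT17 (difference 2.30 ± 0.46, adjusted p = 0.00921).

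A larger set of genes fell in SKG NKT2 and kept more of its level in NKT17. Sox13, an HMG-box transcription factor known from IL-17-producing γδ T cells (chr1:135278880-135320954, minus strand), was at 181, 138 and 104 CPM in WT NKT2 and 7.71, 5.29 and 4.18 in SKG NKT2. In NKT17 the levels were 344, 276 and 337 in WT and 132, 85.0 and 134 in SKG. It fell in both subsets (-4.64 ± 0.34 in NKT2 and -1.44 ± 0.27 in NKT17), and the difference of 3.20 ± 0.43 was past the threshold (adjusted p = 6.81e-04). Fhl2, a LIM-domain scaffold protein (chr1:43179919-43220806, minus strand), was at 50.7, 51.9 and 27.8 CPM in WT NKT2, 2.20, 1.57 and 4.34 in SKG NKT2, 11.9, 16.2 and 15.2 in WT NKT17 and 14.6, 8.90 and 13.1 in SKG NKT17. The genotypes overlapped in NKT17 and were fully apart in NKT2 (difference 3.71 ± 0.51, adjusted p = 3.97e-04). Abhd4, a serine hydrolase of N-acylethanolamine metabolism, dropped from 23.9, 29.9 and 38.3 to 2.86, 2.15 and 1.93 CPM in NKT2 and was 21.7, 25.6 and 25.8 in WT and 16.1, 13.4 and 12.4 in SKG NKT17, where the change did not pass (adjusted p = 0.109).

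Of the 12 genes with the lowest adjusted p in this direction, 7 fell in NKT2 without a call in NKT17. They were Litaf, an endosomal membrane protein, Trim36, a ubiquitin ligase, Smox, the spermine oxidase, Myo1e, a class I myosin, Fam129a, a stress-regulated adaptor also called Niban, Fhl2 and Abhd4. Their effects in NKT2 ran from -3.95 to -1.12 and in NKT17 from -0.80 to 0.17. Litaf was 85.2, 110.4 and 90.0 CPM in WT and 38.5, 30.1 and 34.7 in SKG NKT2, and 38.7, 54.3 and 42.1 in WT and 55.7, 48.9 and 47.3 in SKG NKT17. Trim36 was 30.5, 48.6 and 53.2 in WT and 8.59, 9.59 and 5.94 in SKG NKT2, and 9.37, 9.39 and 11.1 in WT and 7.51, 9.596 and 11.8 in SKG NKT17. For both genes the genotypes were apart in NKT2 and overlapped in NKT17. Myo1e was 79.9, 76.2 and 85.2 CPM in WT and 20.7, 16.4 and 15.1 in SKG NKT2, and 165, 167 and 234 in WT and 121, 139.6 and 140.0 in SKG NKT17, with the genotypes apart in both. Smox had a higher level in NKT17, with 356, 323 and 341 CPM in WT and 325, 289 and 327 in SKG NKT17 but 81.3, 78.8 and 72.1 against 35.5, 36.8 and 34.2 CPM in NKT2. Fam129a fell from 378, 383 and 331 to 98.9, 107 and 109 CPM in NKT2, and its lower level in SKG NKT17 did not reach 1.5-fold (difference 1.30 ± 0.16, adjusted p = 6.17e-05).

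Itgb3, the integrin β3 chain, was 194, 136 and 144 CPM in WT and 25.5, 41.1 and 23.0 in SKG NKT2, whereas NKT17 libraries held 178, 147 and 145 in WT and 132, 151 and 162 in SKG. The difference was 2.32 ± 0.41 (adjusted p = 0.00598). Jag1 and Eng, chosen after their values were seen, fell in both subsets and by more in NKT2. Jag1, a Notch ligand, was 36.2, 23.9 and 12.4 CPM in WT NKT2 and 0.440, 0.392 and 0.803 in SKG NKT2, against 151, 127 and 150.3 and 50.7, 72.4 and 57.6 in NKT17 (difference 4.12 ± 0.68, adjusted p = 0.00296). Eng, the TGF-β co-receptor endoglin, changed by -2.67 ± 0.22 in NKT2 and -1.16 ± 0.20 in NKT17 (difference 1.503 ± 0.29, adjusted p = 0.00697), and it shares exons with Ak1 and Fpgs.

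Other genes rose in SKG NKT17 and rose by less, or had no call, in NKT2. Gng2, a γ subunit of heterotrimeric G proteins (chr14:20691781-20796849, minus strand), rose from 6.05, 9.39 and 11.7 to 65.7, 56.5 and 69.3 CPM in NKT17 and from 23.3, 23.1 and 34.1 to 55.7, 43.5 and 41.3 CPM in NKT2. Genotypes were apart in both subsets, and the rise in NKT17 was the larger (2.80 ± 0.22 against 0.80 ± 0.20; adjusted p of the difference = 4.56e-04). Ccnd3, the G1 cyclin D3 (chr17:47642000-47736632, plus strand), was 108, 140.3 and 98.7 CPM in WT and 238, 211 and 249.6 in SKG NKT17. In NKT2 it was 178, 178 and 197 in WT and 161, 145 and 188 in SKG, and these overlapped (difference 1.17 ± 0.18, adjusted p = 7.79e-04). Its exons overlap those of Bysl on the opposite strand, and since the strand setting of the counting was not given, reads of the 2 genes cannot be told apart where they overlap. It was the only called gene of 48 tested cell cycle genes (2.08%), and the median difference of the list was -0.37. In this list 26 genes were lower and 1 higher in SKG NKT17, and 12 were lower and 1 higher in SKG NKT2. Called in either direction were 931 of all 11118 tested genes in NKT17 (8.37%) and 884 in NKT2 (7.95%).

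S1pr1, the receptor through which T cells leave the thymus toward sphingosine-1-phosphate (chr3:115413351-115417973, minus strand), rose in NKT17 from 0.195, 3.30 and 1.37 to 24.5, 16.6 and 20.5 CPM. In NKT2 its levels overlapped, at 31.1, 25.7 and 55.4 in WT and 53.3, 66.2 and 54.3 in SKG, and the difference was 3.00 ± 0.58 (adjusted p = 0.00838). Ccr8, the CCL1 receptor, rose in both subsets and by more in NKT17 (difference 1.92 ± 0.42, adjusted p = 0.0223, and 0.157 with limma and voom, which did not call it): its levels were 3.71, 4.70 and 1.37 against 37.3, 61.2 and 54.6 CPM in NKT17 and 56.8, 41.6 and 37.2 against 217, 198 and 159 in NKT2. Among 33 tested genes of chemokine receptors and trafficking, 4 were called more positive in NKT17 (Ccr10, Ccr8, S1pr1 and Itgb3) and 3 more positive in NKT2 (Cxcr6, Itgb7 and Gpr183), together 21.2% beside 2.19% of all tested genes, and the list median was 0.02. Itgb7, the β7 chain of gut-homing integrins, rose from 408, 414 and 403 to 863, 1077 and 994 CPM in NKT2 and was 1132, 1366 and 1245 in WT and 1782, 1585 and 2100.1 in SKG NKT17 (difference -0.71 ± 0.16). Cxcr6 and Gpr183 had differences of -0.74 ± 0.17 and -1.34 ± 0.33. The call of Cxcr6 was lost without WT NKT17 replicate 2, where its log2 difference of -0.57 was under the fold minimum at an adjusted p of 0.0551. That of Gpr183 was lost in 6 of 12 fits that left out a library: WT NKT2 replicates 1 and 3, WT NKT17 replicates 2 and 3, and SKG NKT17 replicates 1 and 2 (adjusted p 0.106 to 0.167).

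Annexin and S100 genes encode calcium-binding proteins of membranes and the cytoskeleton. Their list also held the galectin genes Lgals1 and Lgals3. It gave 2 calls of 16 tested genes, both more positive in NKT17 (12.5% beside 2.19% of all tested genes). DESeq2 called 5 of them and limma with voom 2, all more positive in NKT17, and at an unadjusted p under 0.05 there were 8 in that direction and 1 in the other. Such a p was reached by 1189 of all 11118 tested genes, in either direction. S100a6 was 375, 432 and 338 CPM in WT NKT17 and 1181, 724 and 994 in SKG NKT17, but 162, 108 and 139 in WT and 90.5, 85.6 and 103 in SKG NKT2 (difference 1.89 ± 0.33, adjusted p = 0.00614). Anxa2 was 104, 136 and 158 against 303, 233 and 248 CPM in NKT17 and overlapped in NKT2 (difference 1.16 ± 0.25, adjusted p = 0.0191). The median of the list was 0.58. Of its genes, 6 rose in SKG NKT17 and 2 in SKG NKT2, beside 426 and 434 of all 11118 tested genes. Emp3, Plp2, Ahnak, Lmna and Sgk1, which belong to none of the lists, were chosen after their values were seen. Emp3, a tetraspan membrane protein, rose from 39.0, 35.5 and 44.3 to 264, 205 and 257 CPM in NKT17 and from 47.2, 53.1 and 61.6 to 73.1, 111 and 81.3 in NKT2 (difference 1.90 ± 0.30, adjusted p = 0.00124). Differences were 1.21 ± 0.21 for Plp2, a proteolipid, 3.93 ± 0.76 for the nuclear lamina gene Lmna, 1.73 ± 0.33 for the kinase Sgk1 and 0.83 ± 0.20 for the scaffold Ahnak, whose call was lost without SKG NKT2 replicate 3 (adjusted p = 0.103).

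**Figure D2:**
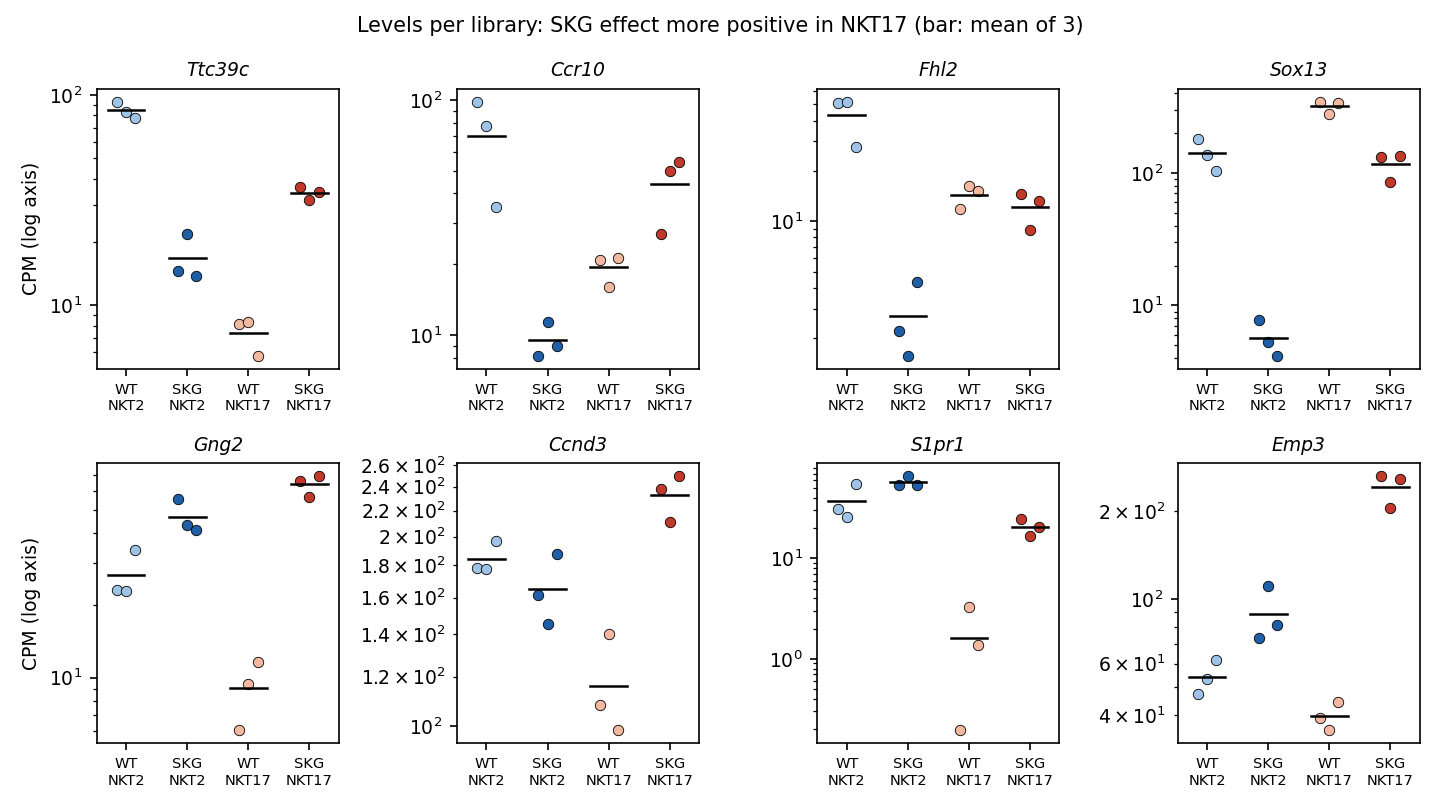
Levels of 8 genes whose SKG effect was more positive in NKT17, in CPM on a log axis, with 1 point per library, 3 per group, and bars at the group means. Ttc39c and Ccr10 move in opposite directions in the subsets, Fhl2 and Sox13 drop most in SKG NKT2, and S1pr1 and Emp3 rise most in SKG NKT17.

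Of the genes more positive in NKT2, Qpct, the glutaminyl cyclase that modifies N termini of peptides (chr17:79451246-79489583, plus strand), had the lowest adjusted p. Its levels were 18.4, 14.9 and 19.4 CPM in WT NKT2, 235, 288 and 219 in SKG NKT2, 91.8, 115 and 104 in WT NKT17 and 287, 344 and 290.0 in SKG NKT17. It rose in both subsets with no overlap, by 3.82 ± 0.15 in NKT2 and 1.56 ± 0.13 in NKT17, and the difference was -2.25 ± 0.19 (adjusted p = 2.00e-07). Dtx1, the Notch-regulated ubiquitin ligase Deltex1 (chr5:121130211-121161936, minus strand), was 0.409, 0.350 and 0.323 CPM in WT NKT2, at or under 3 counts in each library, and 25.8, 22.9 and 21.2 in SKG NKT2. This was a rise of at least 43.1-fold against 3 counts per library. In NKT17 Dtx1 overlapped between genotypes, at 54.3, 37.9 and 49.5 in WT and 50.4, 48.2 and 49.2 in SKG (adjusted p of the difference = 5.86e-07). It was the only called gene of 11 tested Notch pathway genes (9.09%), and the median of that list was 0.11. That list left out Jag1, the Notch ligand described above, which was called as more positive in NKT17.

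Tnfrsf25, F2r, Rarg and Dap rose in SKG NKT2 and had no call in NKT17, and Cd96 rose in both subsets. Tnfrsf25, the receptor DR3 for TL1A (chr4:151490043-151494228, plus strand), was 9.61, 5.77 and 6.95 CPM in WT and 41.8, 69.3 and 51.4 in SKG NKT2, and 212, 217 and 216 in WT and 268, 234 and 280.2 in SKG NKT17 (difference -2.59 ± 0.31, adjusted p = 6.04e-05). F2r, the thrombin receptor, was 167, 131 and 144 against 361, 406 and 356 CPM in NKT2, and its NKT17 levels of 1007, 1019.5 and 1171 in WT and 1190.0, 1146 and 1108 in SKG overlapped. Rarg, retinoic acid receptor γ, rose from 60.3, 60.1 and 66.1 to 175, 212 and 199 CPM in NKT2 (difference -1.405 ± 0.15, adjusted p = 1.68e-05). Dap, a death-associated protein, was 58.7, 63.1 and 59.8 CPM in WT and 146, 157 and 162 in SKG NKT2, overlapped in NKT17 at 293, 328 and 322 in WT and 381, 289 and 357 in SKG, and gave a difference of -1.23 ± 0.15 (adjusted p = 7.63e-05). Cd96, a receptor for the nectin-like molecule CD155, changed by 1.96 ± 0.11 in NKT2 and 0.81 ± 0.11 in NKT17 (adjusted p of the difference = 1.79e-04).

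In the list of cytokine receptors, which also holds genes of their signalling, all calls were in this direction. Of 49 tested, 8 were called more positive in NKT2 and 0 more positive in NKT17 (16.3% beside 2.19% of all tested genes). At an unadjusted p under 0.05 the counts were 13 and 1, with DESeq2 10 and 0, and with limma and voom 7 and 0. Over all 11118 tested genes, 1189 had an unadjusted p under 0.05 in either direction. The median difference of the list was -0.31. The called receptors were Il2ra, Il4ra, Il7r, Il21r, Il18rap, Ifngr1 and Tgfbr2.

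Il2ra, the high-affinity α chain of the IL-2 receptor (chr2:11564419-11614818, plus strand), was 0.818, 0.175 and 2.42 CPM in WT NKT2 and 21.6, 17.0 and 38.2 in SKG NKT2. NKT17 libraries held 93.3, 93.7 and 100.5 in WT and 157, 152 and 138 in SKG, where the change did not pass the test (adjusted p = 0.191). The difference was -3.79 ± 0.53 (adjusted p = 5.50e-04). Il4ra, the IL-4 receptor α chain, rose in both subsets, from 5.11, 7.86 and 9.54 to 54.8, 87.9 and 67.1 CPM in NKT2 and from 23.6, 21.6 and 28.7 to 62.0, 66.8 and 52.4 in NKT17. The rise was larger in NKT2 (difference -1.91 ± 0.32, adjusted p = 0.00158), and SKG NKT2 reached levels that overlapped those of SKG NKT17. Il7r, required for T cell survival on IL-7, rose in NKT2 (1.04 ± 0.10) from 475, 569 and 472 to 1135, 1037 and 941 CPM but was 1595, 1823 and 1779 in WT and 1796, 1906 and 1913 in SKG NKT17 (adjusted p of the difference = 6.81e-04). Il21r rose from 46.2, 47.2 and 48.7 to 129, 116 and 125 CPM in NKT2 and lay between 11.0 and 14.8 CPM in all 6 NKT17 libraries (difference -1.26 ± 0.18, adjusted p = 4.53e-04).

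Ifngr1 and Il18rap fell in NKT17 and had no call in NKT2. Ifngr1, the ligand-binding chain of the interferon-γ receptor, fell from 755, 570.4 and 734 to 372, 292 and 349 CPM in NKT17 and was 89.7, 103 and 93.9 in WT and 74.2, 78.1 and 87.4 in SKG NKT2 (difference -0.77 ± 0.16, adjusted p = 0.013). Il18rap, the accessory chain of the IL-18 receptor, fell from 78.3, 78.9 and 99.1 to 50.4, 53.4 and 52.4 CPM in NKT17 (difference -1.32 ± 0.28, adjusted p = 0.0158), a call that limma with voom did not make (adjusted p = 0.122). Tgfbr2 had a difference of -0.60 ± 0.16, the smallest of the called receptors, and its call was lost without WT NKT2 replicates 1 or 3, WT NKT17 replicates 1 or 3, SKG NKT2 replicate 3, or SKG NKT17 replicates 1 or 2 (adjusted p 0.104 to 0.220).

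Of 20 tested cytokines and chemokines, 2 were called, both more positive in NKT2 (10.0%). Ltb, lymphotoxin β, rose from 448, 610.1 and 499 to 1099, 1382 and 1285 CPM in NKT2 and was 1222, 1419 and 1049.5 in WT and 1538, 1501 and 1614 in SKG NKT17 (difference -0.94 ± 0.16, adjusted p = 0.00244). Tnf had a difference of -1.35 ± 0.35 (adjusted p = 0.0527), lost without WT NKT2 replicates 1 or 3, WT NKT17 replicate 1, SKG NKT2 replicate 1 or SKG NKT17 replicate 2 (adjusted p 0.119 to 0.146), and with limma and voom (0.112). Il4, the signature cytokine of NKT2 cells, was 110.2, 175 and 152 CPM in WT and 119, 75.6 and 93.9 in SKG NKT2 and showed a difference of -0.46 ± 0.43 (adjusted p = 0.811). The Il4 exons overlap Kif3a on the opposite strand. The median of this list was -0.42, or -0.10 with genes at the floor set to their bound.

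Bik, a BH3-only death gene, was the only call among 23 tested survival and death genes (4.35%). It was 2.04, 2.45 and 2.91 CPM in WT NKT2, 14.3, 13.9 and 18.6 in SKG NKT2, 46.7, 56.3 and 60.8 in WT NKT17 and 107, 74.5 and 98.5 in SKG NKT17. The rise was larger in NKT2 (difference -1.87 ± 0.35, adjusted p = 0.00472). Aqp3, an aquaglyceroporin, and Cd72, a C-type lectin, chosen after their values were seen, rose in NKT2 from 4.91, 5.24 and 2.10 to 15.2, 20.4 and 12.5 CPM and from 3.27, 3.84 and 2.91 to 22.5, 23.9 and 23.8 CPM, against 241, 309.5 and 274 and 60.7, 64.3 and 81.9 CPM in WT NKT17. Cd72 rose in NKT17 too (0.94 ± 0.21), and the differences were -1.85 ± 0.33 and -1.86 ± 0.34.

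The 58 genes that rose in NKT2 and were more positive there were mostly genes of higher level in WT NKT17. WT NKT17 exceeded WT NKT2 for 51 of them (87.9%), and the difference between WT subsets was called for 48. The same share was 78.6% of all 434 genes that rose in SKG NKT2 and 51.0% of all tested genes. WT NKT2 libraries enter both the rise and the subset gap. Libraries of both WT subsets also enter the difference by which the 58 genes were chosen, which favours a higher level in WT NKT17. The shares, and the levels against WT NKT17 given next, are therefore a description that this choice partly fixes. In the median of the 58 genes, SKG NKT2 held 59.5% of the WT NKT17 level, beside a median of 124% for all 434 genes that rose in SKG NKT2 and 100.1% for all tested genes. The sum of the 6 NKT17 markers in SKG NKT2 was 0.271% to 0.586% of that in WT NKT17, beside 0.0717% to 0.294% in WT NKT2. Rora, which encodes the nuclear receptor RORα, rose from 48.2, 32.3 and 25.7 to 83.2, 102 and 80.6 CPM in NKT2 (difference -1.02 ± 0.26, adjusted p = 0.0544). Its call was lost without WT NKT2 replicates 2 or 3, WT NKT17 replicate 3, SKG NKT2 replicate 2, or SKG NKT17 replicates 1 or 3 (adjusted p 0.107 to 0.176). Exons of Rora, Cd72, Plp2 and Anxa2 overlap a gene on the opposite strand, and those of Gata3 overlap genes on both strands. In bulk libraries, fewer cells that express a gene and less RNA per cell cannot be told apart.

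**Figure D3:**
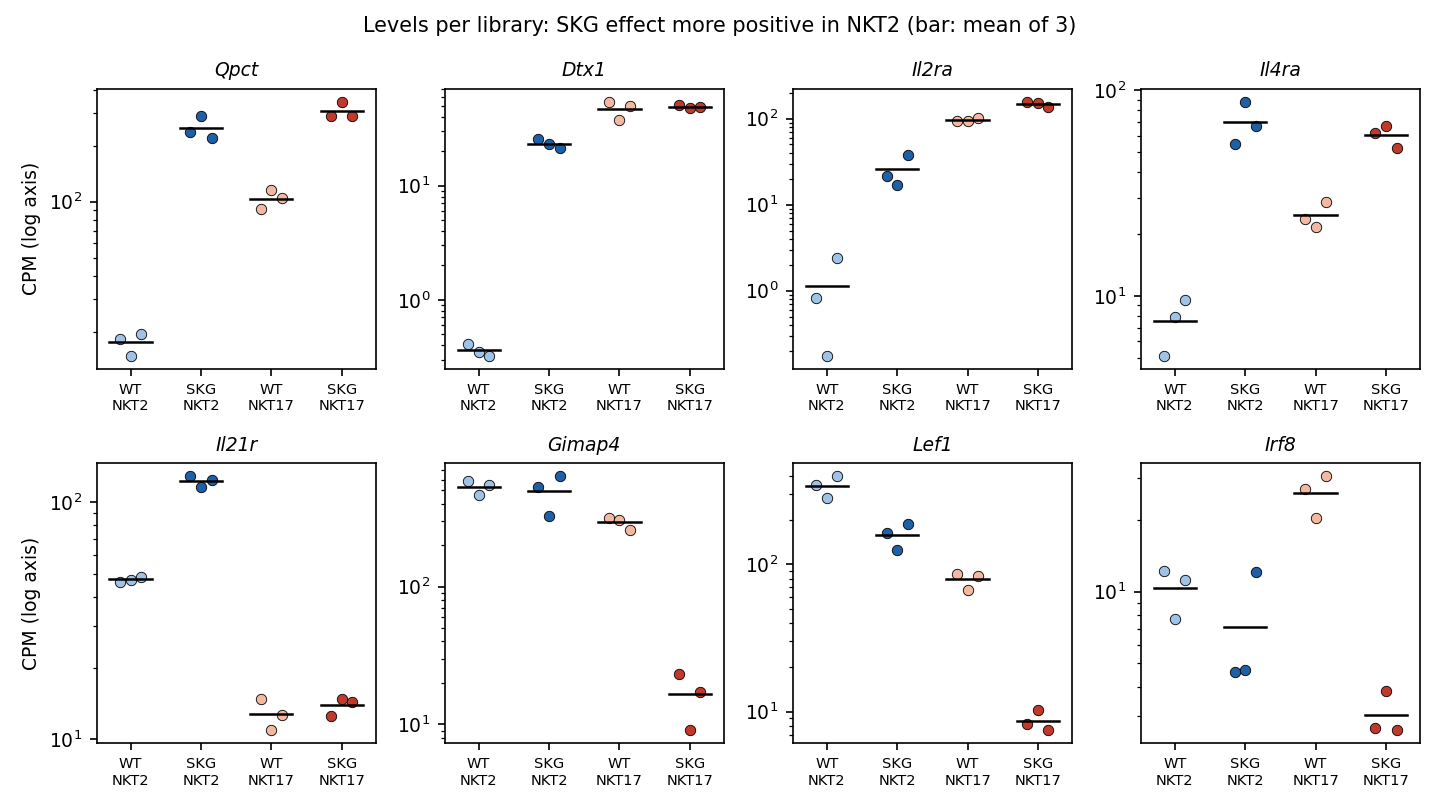
Levels of 8 genes whose SKG effect was more positive in NKT2, in CPM on a log axis, with 1 point per library, 3 per group, and bars at the group means. Qpct, Dtx1, Il2ra, Il4ra and Il21r rise in SKG NKT2, with Dtx1 at or under 3 counts in each WT NKT2 library, while Gimap4, Lef1 and Irf8 drop in SKG NKT17.

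Of 10 core clock genes, a list made after values of some of them were seen, 4 rose in SKG NKT2 (Arntl, Nr1d1, Nr1d2 and Clock), and 2 of the 10, Arntl and Nr1d1, were called for the difference. The other 6, Npas2, Per1, Per2, Per3, Cry1 and Cry2, were called neither in NKT2 nor for the difference (adjusted p of the difference 0.610 to 0.995). Among all 11118 tested genes, 434 rose in SKG NKT2 and 2.19% were called for the difference. Arntl encodes the activator BMAL1 and Nr1d1 its repressor REV-ERBα, and RORα and REV-ERB proteins bind a shared element with the letters AGGTCA. This half-site was searched on both strands of RefSeq promoter windows (GRCm38.p6, 250 bases before to 50 after a start), where 16.3% of 32851 windows hold it, and it was found for 3 of the 4 genes that rose, Arntl, Nr1d2 and Clock, in 3 of their 7 windows, and not for Nr1d1. The stretches around it are shown because these genes rose in SKG NKT2, with the half-site or its reverse complement in capitals, 5′ to 3′ on the gene's strand, at chr7:113207530-113207559 (plus strand), chr14:18239166-18239195 (minus strand) and chr5:76303604-76303633 (minus strand).
Arntl: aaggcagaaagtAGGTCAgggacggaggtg
Nr1d2: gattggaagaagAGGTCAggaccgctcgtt
Clock: agctttggcctcTGACCTgacagatgacag

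Nr1d1 was 8.79, 5.24 and 5.17 CPM in WT NKT2, 25.3, 39.7 and 35.3 in SKG NKT2, 164, 154 and 184 in WT NKT17 and 188, 173 and 211 in SKG NKT17 (difference -2.22 ± 0.33, adjusted p = 5.50e-04). Only the NKT2 genotypes were apart, and reads at its overlap with Thra on the opposite strand cannot be assigned. Arntl was 31.7, 21.7 and 24.9 CPM in WT NKT2, 46.0, 49.9 and 50.1 in SKG NKT2, 137, 136 and 143 in WT NKT17 and 108, 116 and 94.2 in SKG NKT17. It rose in NKT2, and the lower SKG NKT17 values did not reach 1.5-fold (difference -1.30 ± 0.20, adjusted p = 7.09e-04). Nr1d2 and Clock rose in NKT2 (0.68 ± 0.17 and 1.24 ± 0.29), but their differences of -0.82 ± 0.24 and -1.07 ± 0.39 did not pass (adjusted p = 0.105 and 0.253). Nr1d2 did pass without SKG NKT2 replicate 1 (adjusted p = 0.0493) and with DESeq2.

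In the genes that fell in SKG NKT17, the Gimap genes stood together on chromosome 6. These genes encode GTPases of immunity-associated proteins that act in lymphocyte survival, and 8 of them lie between positions 48597233 and 48716518 (NCBIM37). Gimap4 (chr6:48634548-48642061, plus strand) was 317, 307 and 259 CPM in WT NKT17 and 23.2, 9.07 and 17.3 in SKG NKT17. In NKT2 it was 584, 464 and 549 in WT and 530.3, 329 and 637 in SKG, which overlapped, and the difference of -4.04 ± 0.38 was past the threshold (adjusted p = 6.17e-05). Gimap6 fell in NKT17 from 240.3, 266 and 284 to 53.4, 25.8 and 53.1 CPM and overlapped in NKT2, at 357, 437 and 448 in WT and 644, 339 and 752 in SKG (difference -3.06 ± 0.44, adjusted p = 0.00238). Gimap8 and Gimap3 were called in opposite directions. Gimap8 fell from 44.5, 42.6 and 69.9 to 18.4, 12.4 and 24.2 CPM in NKT17 and rose from 52.1, 30.8 and 53.2 to 73.3, 63.6 and 90.6 CPM in NKT2 (difference -2.26 ± 0.33, adjusted p = 6.68e-04).

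Gimap3 fell from 28.3, 48.0 and 53.0 to 24.5, 14.0 and 19.1 CPM in NKT17 and rose from 36.0, 46.1 and 51.2 to 129, 54.0 and 181 in NKT2 (difference -2.61 ± 0.53, adjusted p = 0.0254), a call that limma with voom did not make (adjusted p = 0.127). Of the 8 tested Gimap genes, 6 were called for the difference, all more positive in NKT2, a direction called for 1.05% of all tested genes: the 4 above, Gimap1 (-1.16 ± 0.25) and Gimap9 (-1.003 ± 0.22). Gimap5 and Gimap7 did not pass (adjusted p = 0.163 and 0.596), although Gimap5 did without SKG NKT2 replicate 2 or SKG NKT17 replicate 3 (lowest adjusted p 0.0231), with DESeq2 and with either replicate block. Gimap1, 5, 6, 7 and 9 were looked at after values of the family had been seen. In the annotation, Gimap1 shares exons with Gimap5 and Gimap7 on the same strand, so reads there cannot be assigned to 1 of them, and the genes are related in sequence. The letters CTTTGA, the core bound by TCF1 and LEF1, were in 2 of 9 RefSeq windows of the 8 genes, those of Gimap4 and Gimap7, beside 16.0% of all windows. They are shown because Lef1, which encodes 1 of these factors, is among the genes described here, with the core or its reverse complement in capitals, at chr6:48684591-48684620 (plus strand) and chr6:48718641-48718670 (plus strand); in Gimap4 it overlaps an AGGTCA half-site.
Gimap4: aatcagagaaggTCAAAGgacccagatttt
Gimap7: agagtcctggtgcagtcagattCTTTGAag

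**Figure D4:**
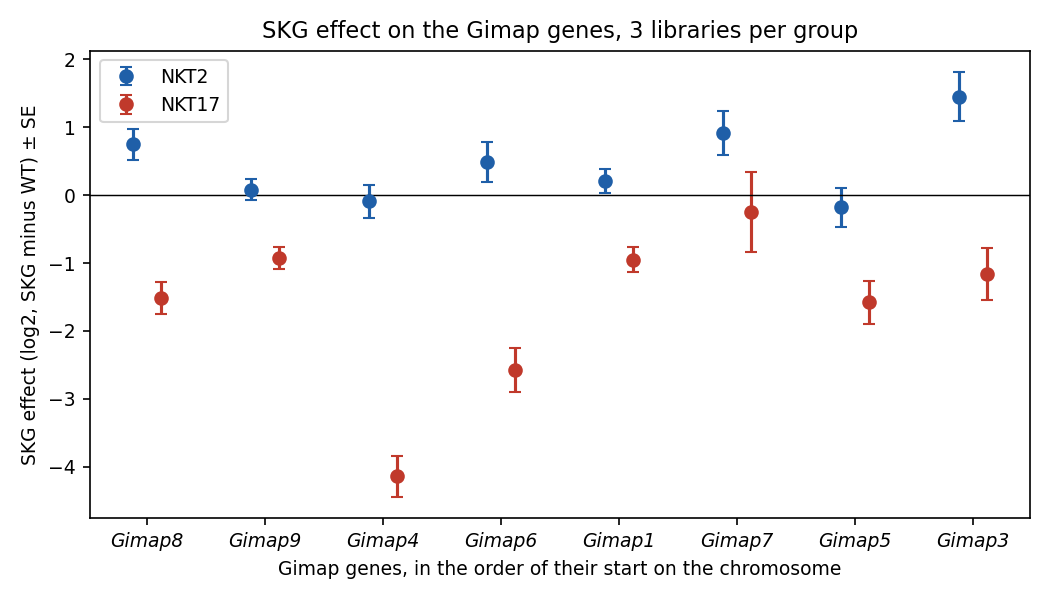
SKG effect (log2, SKG minus WT, ± SE from the edgeR fit, 3 libraries per group) on 8 Gimap genes in NKT2 (blue) and NKT17 (red), in the order of their start on the chromosome. The NKT17 value is below the NKT2 value for each of the 8 genes, with 6 of the differences called, and Gimap4 is lowest at -4.14.

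Transcription factors of T cell lineages gave 2 calls more positive in NKT17, Sox13 and Ikzf2, and 5 more positive in NKT2, among them Lef1, Irf8, Id3 and Rora, of 49 tested (14.3%, list median -0.22). Lef1, an HMG-box factor of Wnt-responsive and immature T cells (chr3:130813389-130927274, plus strand), fell in both subsets. It was 344, 281 and 399 CPM in WT and 162, 125 and 189 in SKG NKT2, and 86.7, 67.1 and 83.7 in WT and 8.22, 10.3 and 7.51 in SKG NKT17. Without overlap in either subset, the change was -3.19 ± 0.22 in NKT17 and -1.10 ± 0.19 in NKT2 (adjusted p of the difference = 3.86e-04). Id3, the inhibitor of E proteins that is induced by TCR signals, also fell in both, from 458, 584 and 440.2 to 76.9, 63.2 and 99.7 CPM in NKT2 and from 318, 344 and 161 to 19.7, 16.7 and 16.9 in NKT17. Its difference of -1.32 ± 0.33 passed narrowly (adjusted p = 0.0629), and it was lost when any 1 of 9 libraries was left out, all but WT NKT2 replicate 2, WT NKT17 replicate 3 and SKG NKT2 replicate 2 (adjusted p 0.113 to 0.167), and with limma and voom (0.293).

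Irf8, an interferon-regulatory factor, fell in NKT17 from 26.9, 20.3 and 30.6 to 2.69, 3.84 and 2.63 CPM and overlapped in NKT2, at 12.3, 7.69 and 11.2 in WT and 4.62, 4.70 and 12.0 in SKG (difference -2.58 ± 0.45, adjusted p = 0.00244). Ikzf2, which encodes Helios, fell in NKT2 from 55.8, 68.0 and 43.2 to 18.3, 7.05 and 12.2 CPM and overlapped in NKT17 (difference 2.16 ± 0.52, adjusted p = 0.0503). The Ikzf2 call was lost in 7 of 12 fits without a library: WT NKT2 replicate 2, WT NKT17 replicates 1 and 2, SKG NKT2 replicates 2 and 3, and SKG NKT17 replicates 2 and 3 (adjusted p 0.110 to 0.138).

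Interferon-stimulated genes gave 3 calls of 42 tested, all more positive in NKT2 (7.14%; 4 with DESeq2 and 3 with limma and voom in that direction, and 0 in the other with either). The list median was -0.31. Of its genes, 15 fell and 0 rose in SKG NKT17, and 4 fell and 1 rose in SKG NKT2. Among all 11118 tested genes, 931 changed in either direction in NKT17 (8.37%) and 884 in NKT2 (7.95%). Ifit2, an antiviral protein with tetratricopeptide repeats, fell from 19.5, 13.4 and 11.7 to 1.98, 5.23 and 1.69 CPM in NKT17 and overlapped in NKT2 (difference -2.15 ± 0.47, adjusted p = 0.0165). Gbp6, a guanylate-binding protein, fell from 40.6, 38.3 and 33.4 to 19.5, 17.4 and 13.1 CPM in NKT17 (difference -1.33 ± 0.30, adjusted p = 0.0218). At an unadjusted p under 0.05, 10 genes of the list were more positive in NKT2 and 1 in NKT17. The same p was reached by 1189 of all 11118 tested genes, in either direction.

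Trpm6 and Slc16a6, transport genes outside these lists, were also called in opposite directions. Trpm6, a magnesium channel with a kinase domain (chr19:18824473-18967000, plus strand), was 26.8, 30.6 and 31.2 CPM in WT NKT2, 71.6, 62.8 and 61.2 in SKG NKT2, 43.5, 43.0 and 40.5 in WT NKT17 and 15.7, 29.1 and 25.3 in SKG NKT17. It rose in NKT2 and fell in NKT17 with no overlap (difference -1.9995 ± 0.32, adjusted p = 8.81e-04). Slc16a6, a member of the monocarboxylate transporter family, rose from 16.4, 15.7 and 16.2 to 27.1, 25.3 and 25.9 CPM in NKT2 and fell from 65.2, 62.1 and 69.7 to 34.1, 36.6 and 40.5 in NKT17 (difference -1.52 ± 0.21, adjusted p = 3.49e-04). Its exons overlap Amz2 and Arsg on the opposite strand.

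Of 52 tested TCR signalling genes, 1 was called more positive in NKT17 and 3 more positive in NKT2 (7.69% beside 2.19% of all tested genes, list median -0.19). DESeq2 called 2 and 4, limma with voom 0 and 3, and 6 and 10 had an unadjusted p under 0.05. An unadjusted p under 0.05 was found for 1189 of all 11118 tested genes, in either direction. Ubash3a, a suppressor of TCR signalling, rose from 0.390, 1.39 and 2.33 to 10.6, 15.5 and 13.1 CPM in NKT17 and from 16.6, 20.97 and 24.7 to 49.8, 60.9 and 50.7 in NKT2, and the larger ratio was in NKT17 (difference 1.77 ± 0.38, adjusted p = 0.0167; 0.199 with limma and voom, which did not call it). Cd5, whose level follows the strength of TCR signals, fell in NKT17 from 241, 261 and 230.2 to 82.4, 88.1 and 104 CPM and overlapped in NKT2, at 428, 462 and 597 in WT and 355, 288 and 429.7 in SKG (difference -0.95 ± 0.25, adjusted p = 0.0717). Cd6, a related receptor, fell from 486, 468 and 524 to 254, 323 and 320.2 CPM in NKT17 (difference -0.74 ± 0.18, adjusted p = 0.0444). Rasgrp1, a Ras exchange factor, rose from 61.1, 41.8 and 55.4 to 89.9, 117 and 129.9 CPM in NKT2 (difference -0.96 ± 0.24, adjusted p = 0.0444).

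The last 3 calls depended on single libraries. Cd6 was lost without WT NKT2 replicate 1, WT NKT17 replicate 3, SKG NKT2 replicate 3 or SKG NKT17 replicate 1 (adjusted p 0.102 to 0.154). Rasgrp1 was lost in 7 of 12 such fits (adjusted p 0.110 to 0.152), those without WT NKT2 replicate 2, WT NKT17 replicates 1 or 3, SKG NKT2 replicates 2 or 3, or SKG NKT17 replicates 1 or 3. Cd5 was lost in 9 of 12 (adjusted p 0.128 to 0.2098), and was kept without WT NKT2 replicate 3, SKG NKT2 replicate 2 or SKG NKT17 replicate 3. None of 39 tested TCR-induced genes was called by edgeR, DESeq2 or limma with voom, while 3 were more positive in NKT2 and 0 in NKT17 at an unadjusted p under 0.05. Their median difference was -0.49, beside -0.01 for all tested genes, and single libraries moved it both ways. It was -0.26 without WT NKT17 replicate 3 and -0.29 without WT NKT2 replicate 2, but -0.67 without WT NKT17 replicate 2 and -0.64 without WT NKT2 replicate 1. The summed level of the list varied widely between WT NKT17 libraries, with 6688 CPM in replicate 3, 5273 in replicate 1 and 2763 in replicate 2, and was 2496 CPM in WT NKT2 replicate 2, beside 3831 and 3930 in the other WT NKT2 libraries. The libraries of lowest sum, WT NKT17 replicate 2 and WT NKT2 replicate 2, carried the same token in their titles.

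**Figure D5:**
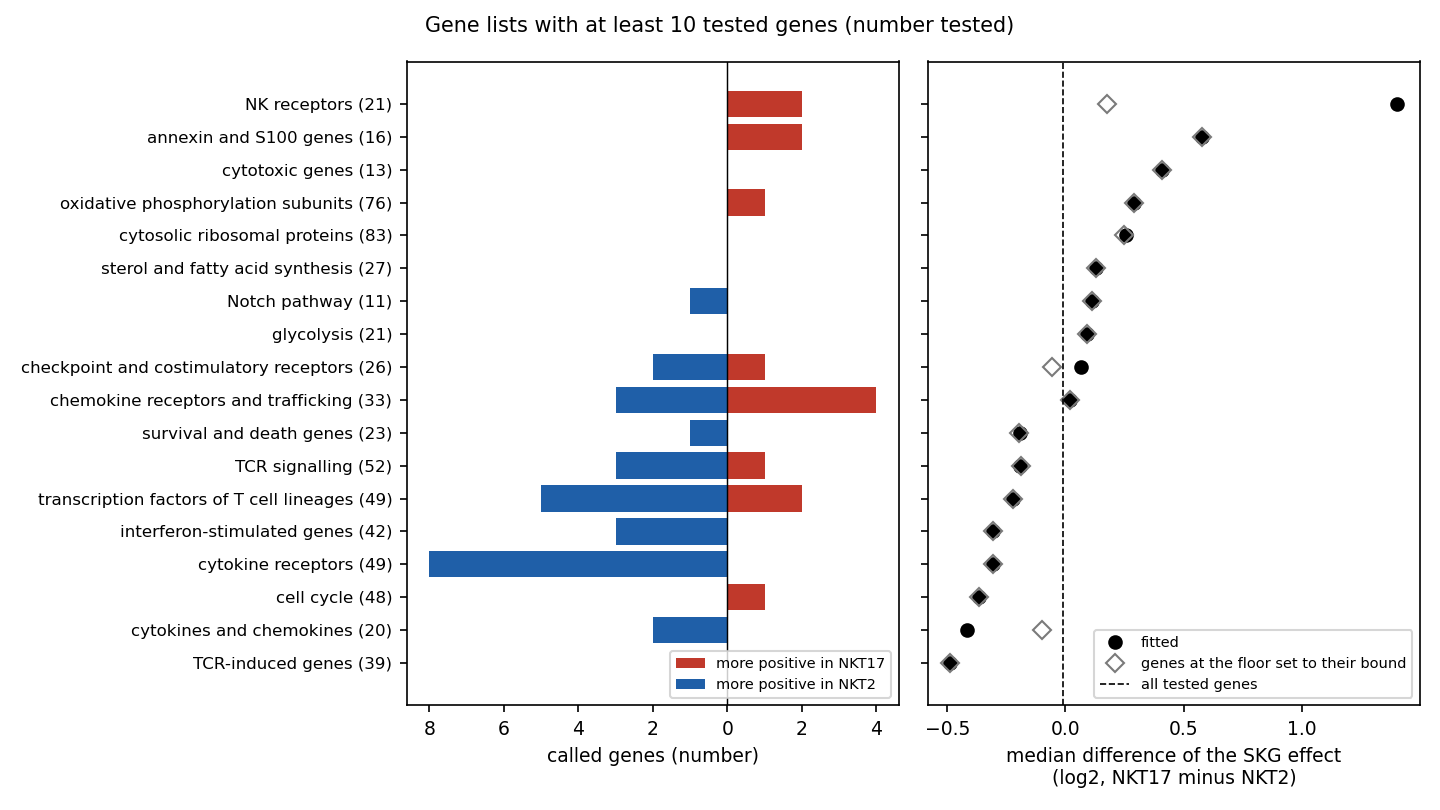
Gene lists with at least 10 tested genes, with the number tested in brackets. Left, called genes more positive in NKT17 (red) or NKT2 (blue). Right, the median difference of the SKG effect (log2), fitted (black) and with genes at the floor of 3 counts set to their bound (open), with a dashed line at the median of all tested genes; cytokine receptors have 8 calls, all in the direction of NKT2.

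The checkpoint and costimulatory list had 3 calls of 26 tested (11.5%, median 0.07, or -0.06 with genes at the floor set to their bound), which were Icos, Cd96 and Tnfrsf25. Icos, a costimulatory receptor on which the cells were gated and the 1 call among 6 NKT2 markers, was 1129.9, 1069.9 and 1128 CPM in WT and 861, 665 and 681 in SKG NKT2 and overlapped in NKT17 (difference 0.65 ± 0.19, adjusted p = 0.0971). It was lost when any of 10 libraries was left out, and kept without WT NKT17 replicate 1 or SKG NKT2 replicate 1 (adjusted p of the losses 0.133 to 0.234), and it was also lost with the replicate block within genotype (adjusted p = 0.117). Of the other subset markers, Gata3 fell in SKG NKT2, from 261, 249 and 299 to 162, 171 and 184 CPM, and its difference of 0.50 ± 0.18 did not pass (adjusted p = 0.247), although it did without WT NKT17 replicate 3 (adjusted p = 0.0788). Among the fits that left out 1 library, Cd4 passed only in that without WT NKT17 replicate 2 (adjusted p = 0.00355, against 0.261 with all libraries).

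A gene can also change greatly in NKT17 without a call for the difference. Ccr6, the CCL20 receptor and an NKT17 marker, rose from 18.4, 3.65 and 14.1 CPM in WT NKT17 to 593, 618 and 565 in SKG NKT17. It was 0, 0.524 and 0.162 in WT NKT2, at or under 3 counts in each library, and 0.220, 2.74 and 0.321 in SKG NKT2, and the difference of 3.54 ± 2.17 did not pass (adjusted p = 0.637). Of 244 called genes, 225 were measured in both subsets, where the higher genotype averaged 20 counts or more in each and 50 or more in 1 of them, and 19 had a group at the floor.

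Among 76 tested subunits of oxidative phosphorylation there was 1 call (1.32%), Ndufa4, a cytochrome c oxidase-associated subunit (0.65 ± 0.19, adjusted p = 0.0978). DESeq2 and limma with voom also called 1 each, while 16 subunits were more positive in NKT17 and 0 in NKT2 at an unadjusted p under 0.05, and the list median was 0.29. Of all 11118 tested genes, 1189 had an unadjusted p under 0.05 in either direction. The Ndufa4 call was lost in 9 of 12 fits without a library and kept without WT NKT2 replicate 1, WT NKT17 replicate 2 or SKG NKT17 replicate 2 (adjusted p of the losses 0.134 to 0.294). Of the 83 ribosomal protein genes, 27 sterol and fatty acid genes, 21 glycolysis genes and 13 cytotoxic genes, edgeR called 0. At an unadjusted p under 0.05 there were 4, 1, 6 and 3, DESeq2 called 0, 0, 1 and 2, and limma with voom called 0 of each. Medians were 0.25, 0.13, 0.09 and 0.41.

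The SKG effect in NKT1 cells was called for 47 of the 244 genes (19.3%), beside 3.27% of all tested genes. The 244 genes were chosen by their SKG effects in NKT17 and NKT2, so these shares are not like for like. Among the genes named above, Litaf, Id3 and Ifngr1 fell in SKG NKT1 as well, with effects of -1.55 ± 0.16, -1.99 ± 0.29 and -0.78 ± 0.11, whereas Ttc39c (-0.22 ± 0.17), Qpct (0.04 ± 0.12) and Gimap4 (-0.31 ± 0.25) did not pass there (adjusted p = 0.643, 0.954 and 0.673). Other calls in NKT1 went against the change in NKT2. Il2ra fell in SKG NKT1 (-1.25 ± 0.32) and Itgb3 rose there (1.69 ± 0.39). The gap between NKT17 and NKT2 was narrower in SKG than in WT for 130 of the 244 genes (53.3%), close to the 52.2% of all tested genes. By direction, it was narrower for 57 of the 127 genes more positive in NKT17 and 73 of the 117 more positive in NKT2. The same libraries enter the gap and the choice of genes, so these counts are a description.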

How the data were processed

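RNA of sorted thymic iNKT cells was sequenced with a protocol adapted from Smart-seq2. The deposited values are whole-number counts per gene, made by the authors from reads aligned with TopHat 1.4.1. The genome build and HTSeq version are stated differently in the methods and in the submitters' processing notes (mm10, hg19, HTSeq 0.7.1 and Bowtie 1.0.0 in the notes), and strand setting and annotation were not given in the sources used here. The 2 count columns of no listed sample were not used.

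Counts of all 18 libraries were scaled by TMM and tested with edgeR 4.0.16 (robust quasi-likelihood, 6 group means, 12 residual degrees of freedom) in R 4.3.3. Of 23337 genes, 15582 had a count and 11118 passed the filter on low counts (filterByExpr). A call needed a Benjamini-Hochberg adjusted p under 0.1 and a fold of at least 1.5, and an SE is the absolute log2 value over the root of F. The floor is 3 counts in each library of a group. Alternatives used DESeq2 1.42.0, limma 3.58.1 with voom, other scalings, filters and thresholds, title tokens as a block, and each library left out. The procedure was tested on simulated data. Gene positions are those of GENCODE M1 on NCBIM37, matched by symbol, and promoter sequence is from RefSeq on GRCm38.p6.

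The lists and the named genes were chosen with earlier results of these data known. Named were, among called genes measured in both subsets, the 12 lowest adjusted p-values in each direction and up to 5 opposite calls in each direction, together with called list members, Zap70 and the subset markers. Gimap1, 5, 6, 7 and 9, the clock genes, Emp3, Plp2, Ahnak, Jag1, Eng, Sgk1, Lmna, Aqp3, Cd72 and Bysl were chosen after their values were seen. Counting error and the spread between 3 libraries both limit low genes. Some genes of the lists are not reported here by name.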

Additional observations from a re-analysis of the deposited data

Results flagged for a closer look

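For 29 genes the effect of SKG in NKT17 differed from that in NKT2 by the edgeR test of the difference, either among the 12 lowest adjusted p-values in a direction or with calls of opposite sign in the subsets. Values are log2 differences, NKT17 minus NKT2. Opposite calls more positive in NKT17 were those of Klrk1 (5.34 ± 0.72), Ttc39c (4.55 ± 0.27), Ccr10 (4.05 ± 0.50) and Sh3bgrl2 (2.30 ± 0.46). Opposite calls more positive in NKT2 were those of Gimap3 (-2.61 ± 0.53), Gimap8 (-2.26 ± 0.33), Trpm6 (-1.9995 ± 0.32) and Slc16a6 (-1.52 ± 0.21).

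The other genes more positive in NKT17 were Fhl2 (3.71 ± 0.51), Sox13 (3.20 ± 0.43), Abhd4 (2.94 ± 0.47), Trim36 (2.40 ± 0.38), Gng2 (2.002 ± 0.29), Myo1e (1.71 ± 0.27), Litaf (1.64 ± 0.23), Fam129a (1.30 ± 0.16), Ccnd3 (1.17 ± 0.18) and Smox (1.01 ± 0.16). Those more positive in NKT2 were Dtx1 (-5.88 ± 0.53), Gimap4 (-4.04 ± 0.38), Il2ra (-3.79 ± 0.53), Tnfrsf25 (-2.59 ± 0.31), Qpct (-2.25 ± 0.19), Lef1 (-2.09 ± 0.29), Rarg (-1.405 ± 0.15), Il21r (-1.26 ± 0.18), F2r (-1.24 ± 0.14), Dap (-1.23 ± 0.15) and Cd96 (-1.16 ± 0.15). The value for Dtx1 depends on the prior count of the fit, since WT NKT2 libraries were at or under 3 counts. Groups of 3 libraries were too small to tell an outlying library from the spread within a group. Fits that left out each library in turn are given below.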

How the results depend on the processing

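At an adjusted p under 0.05, 155 genes were called for the difference, 76 of them more positive in NKT17, and without a fold minimum 1398 genes were called in NKT17. Leaving out 1 library gave 157 to 256 calls, 75 to 136 more positive in NKT17 and 75 to 120 more positive in NKT2. DESeq2 called 343 and limma with voom 197, and no call changed direction under the 23 alternatives, while the differences of Il2rb (-0.16 to 0.04) and Sdc1 (-0.18 to 1.196), which were not called, changed sign. Of 75 named calls, 55 were made under every alternative that tested the gene (Klrk1 and Klrd1 were left out by a minimum mean of 50 counts) and 20 were lost under 1 or more, and 5 of 20 named genes without a call gained one under 1 or more: Cxcr3, Gata3, Cd4, Gimap5 and Nr1d2. With the title token as a replicate block within genotype 301 genes were called, and 277 with the block across genotypes, against 244 without a block. Deviations of the 6 same-token pairs of NKT2 and NKT17 libraries correlated at 0.0917 to 0.351, 4 of them over 0.1, against -0.229 to 0.0464 for other pairs, and all 12 libraries were closest to their own token. Since 2 of the 6 did not pass 0.1 (0.0917 and 0.0939, both in SKG) and the labels do not say what a token marks, the libraries were not taken as paired, and the closeness is a hint from the data, not the design. Each genotype also had a token that the other lacked, so tokens and genotype are partly confounded. A replicate number does not mark the same token in WT and SKG. Depth limits genes at the floor, whose fitted difference depends on the prior count.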
